A study of Mus musculus with 20 samples.

Results

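The Neurod family of basic helix-loop-helix (bHLH) transcription factors was described here through its 4 genes Neurod1, Neurod2, Neurod4 and Neurod6, out of 22556 genes in the stage matrix. The genes were chosen by symbol, with their measured levels in the developmental series and in both Pet-1 knockout comparisons already known, so those levels are a description, and the calls and the authors' q quoted beside them are not a test of the family. The study sorted serotonin (5-HT) neurons of C57BL/6 mice by their EYFP label and asked how Pet-1, a transcription factor whose gene is Fev, acts at different ages. The Pet-1 knockout libraries came from Pet-1-/- neurons at E15.5 and the controls from wild-type neurons of the same age, with 3 libraries per genotype in each of 2 amplification kits, Clontech SMARTer and NuGEN Ovation. The developmental series held wild-type neurons at E11.5, at E15.5 and at postnatal day 1 to 3, with 3 Clontech libraries at each age. One chromatin immunoprecipitation (ChIP) sample and its input came from dissected hindbrain tissue, between the midbrain boundary and rhombomere 4, that carried a Myc-tagged Pet-1 transgene (ePet-mycPet-1) and ePet-EYFP. The protocol gives those embryos as Pet-1-/- and E12.5 to E15.5, whereas the sample fields give wild type and E12.5 to E14.5. Both transgenes are named for the ePet enhancer of Pet-1, so the sorted cells and the tagged protein are those in which that enhancer drove the transgene. The labels do not say whether libraries of a group came from separate animals, so every p-value measures only the spread between these libraries, which may be technical.

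Neurod proteins bind E-box DNA as dimers with a ubiquitous class of bHLH proteins, the E proteins Tcf3, Tcf4 and Tcf12. Proneural factors such as the neurogenins act earlier, in dividing or newly born cells. Neurod genes commonly follow them in postmitotic neurons of the cortex, cerebellum and retina, and in endocrine cells of the pancreas. Id proteins lack the DNA-binding part and hold E proteins away from such dimers, and Notch signalling through Hes factors represses proneural genes.

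The start regions of Neurod6, Neurod1 and Neurod2 are shown because Neurod6 was the member with the highest level, Neurod1 the other one above the detection filter, and Neurod2 the one with a mycPet-1 ChIP peak in its span. Each is the RefSeq window of GRCm38.p6 from 250 bases before to 50 bases after the gene start, on the minus strand, with every E-box (CANNTG) in capitals. They lie at chr6:55681214-55681513 for Neurod6, chr2:79456587-79456886 for Neurod1 and chr11:98329596-98329895 for Neurod2.
Neurod6: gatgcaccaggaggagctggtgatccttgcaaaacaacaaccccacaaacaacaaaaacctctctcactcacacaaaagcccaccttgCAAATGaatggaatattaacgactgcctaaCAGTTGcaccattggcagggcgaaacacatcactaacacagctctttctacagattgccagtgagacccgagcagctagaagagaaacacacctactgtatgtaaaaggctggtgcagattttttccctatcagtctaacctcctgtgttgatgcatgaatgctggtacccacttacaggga
Neurod1: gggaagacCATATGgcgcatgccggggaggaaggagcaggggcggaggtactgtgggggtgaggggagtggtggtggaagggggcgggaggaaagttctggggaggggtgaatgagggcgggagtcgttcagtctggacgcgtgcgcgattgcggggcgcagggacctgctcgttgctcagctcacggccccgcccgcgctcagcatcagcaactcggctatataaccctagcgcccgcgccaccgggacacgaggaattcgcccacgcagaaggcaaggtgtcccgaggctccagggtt
Neurod2: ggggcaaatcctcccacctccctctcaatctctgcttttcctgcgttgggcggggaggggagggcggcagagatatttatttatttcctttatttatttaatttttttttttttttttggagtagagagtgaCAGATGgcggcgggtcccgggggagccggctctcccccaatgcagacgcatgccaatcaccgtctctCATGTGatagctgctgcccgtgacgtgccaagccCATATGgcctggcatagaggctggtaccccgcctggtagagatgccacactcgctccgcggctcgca
The Neurod6 window held 2 E-boxes, the Neurod1 window 1 and the Neurod2 window 3, and 72.3% of all 32851 RefSeq mouse windows of this length held at least 1. Neurod4 has 2 windows in the table, of which the first held no E-box and the second held 1. The CATATG form occurred once in Neurod1 and once in Neurod2, against 3.91% of all windows, and CAGATG occurred once in Neurod2, against 17.2% of all windows. CAGCTG was found in the second Neurod4 window only, against 16.3% of all windows. GGAA, the core that ETS factors such as Pet-1 recognise, was counted on both strands and occurred 2 times in Neurod6, 5 times in Neurod1, 2 times in Neurod2 and 4 and 2 times in the Neurod4 windows. It was present in 96.0% of all windows, with a median of 3 matches. The longer CCGGAA, which contains GGAA, occurred in none of the members' windows and in 14.9% of all windows. A match is a run of letters in the window and not a bound site.

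Neurod6 had the highest level of the 4 genes in wild-type serotonin neurons at E15.5, and it was lower in postnatal libraries. At E11.5 it was listed at 0 FPKM (fragments mapped to a gene, scaled for transcript length and library size) in all 3 libraries. At E15.5 it was at 9.52, 4.58 and 7.34 FPKM in libraries a, b and c, a mean of 7.15 ± 2.48 (SD, n = 3). In the postnatal libraries it was at 0.0291, 2.61 and 1.09 FPKM, a mean of 1.24 ± 1.30 (SD, n = 3). Every E15.5 library was above every library of the other ages, and the postnatal libraries differed among themselves by more than those of E15.5 in proportion to their mean. The mean E15.5 level was above that of 75.4% of the 22542 genes with an estimate, with 5535 genes higher, so Neurod6 was a moderate transcript at its highest. In bulk libraries, fewer cells with the transcript and less transcript per cell cannot be told apart.

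Neurod1, which drives neuronal and endocrine differentiation, was near the detection limit throughout. It was at 0, 0.128 and 0.181 FPKM at E11.5. At E15.5 it was at 0.433, 0.694 and 1.99 FPKM, a mean of 1.04 ± 0.836 (SD, n = 3). In the postnatal libraries it was at 1.23, 0.423 and 1.52 FPKM, a mean of 1.06 ± 0.570 (SD, n = 3). The E11.5 values lay below all later values, while E15.5 and postnatal values overlapped.

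Neurod2, known from cortical and hippocampal neurons, was listed at 0 FPKM in every E11.5 and postnatal library and at 0.0137, 0 and 0.00587 FPKM at E15.5. Neurod4, which acts in early neuronal differentiation, was at 0.107, 0 and 0.177 FPKM at E11.5. It was at 0, 0.00322 and 0.107 FPKM at E15.5 and was listed at 0 in all postnatal libraries. Neither gene reached 1 FPKM in any of the 9 libraries.

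**Figure D1:**
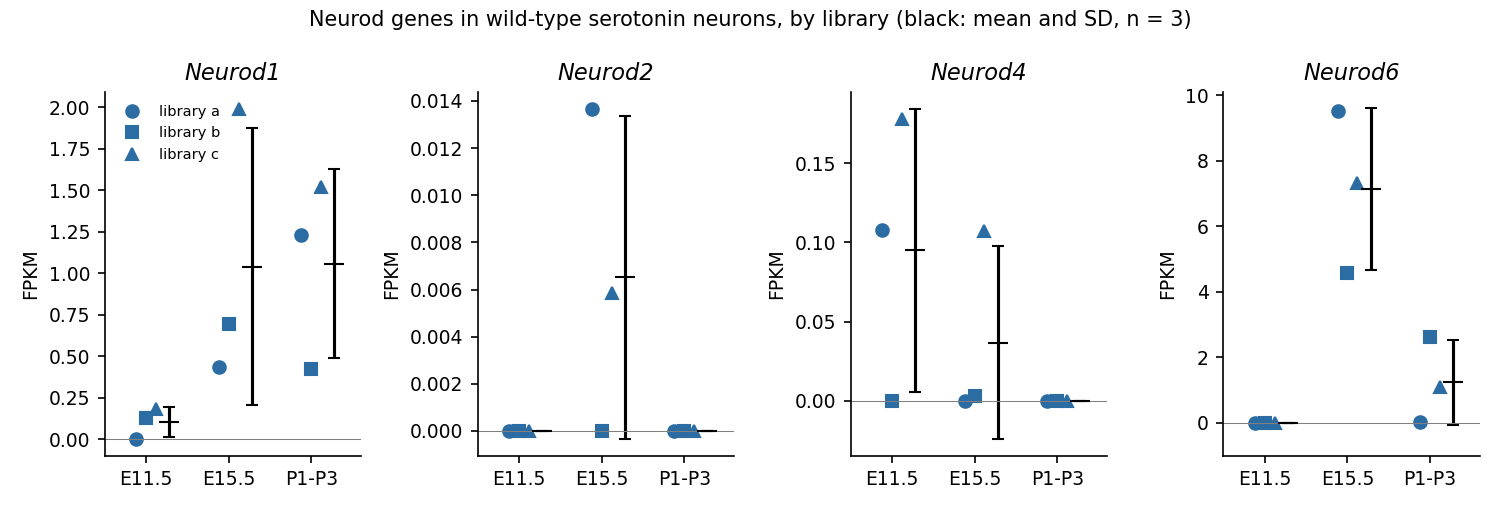
FPKM of the 4 Neurod genes in each wild-type library at E11.5, E15.5 and postnatal day 1 to 3, with 1 marker shape per library and a black bar for the mean and SD (n = 3). Each gene has its own axis: Neurod6 reaches 9.52 FPKM at E15.5 and is listed at 0 in the E11.5 libraries, while Neurod2 and Neurod4 stay below 0.2 FPKM.

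Within the family the order at E15.5 was Neurod6, Neurod1, Neurod4, Neurod2, and the lowest Neurod6 library was above the highest Neurod1 library. The neighbours Neurod4 and Neurod2 overlapped in their library values at E15.5. In the postnatal libraries Neurod6 and Neurod1 overlapped. Neurod6 made up 95.5, 86.8 and 77.7% of the summed family FPKM in the E15.5 libraries a, b and c. In the postnatal libraries it made up 2.31, 86.1 and 41.6%, with Neurod1 making up 97.7, 13.9 and 58.4%. Which of the 2 genes led therefore differed from one postnatal library to the next. The family sum was 0.107 to 0.358 FPKM at E11.5, 8.23 ± 2.57 FPKM at E15.5 and 2.30 ± 0.928 FPKM in postnatal libraries (SD, n = 3 each).

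Only Neurod1 and Neurod6 reached 1 FPKM in at least 3 of the 9 libraries, the filter for fitting, and Neurod2 and Neurod4 did not. On the log2(FPKM + 1) scale Neurod6 was 2.98 (SE 0.44) higher at E15.5 than at E11.5 and -1.99 (SE 0.44) in postnatal libraries relative to E15.5. The postnatal difference from E11.5 was 0.99 (SE 0.44). As Neurod6 was listed at 0 at E11.5, the size of these differences depends on the pseudocount: with 0.1 in place of 1 they were 6.12, -3.22 and 2.90. Neurod1 differed by 0.82 (SE 0.35) at E15.5 relative to E11.5, by 0.05 in postnatal libraries relative to E15.5 and by 0.86 relative to E11.5, and the 2 differences from E11.5 were 2.37 and 2.49 with a pseudocount of 0.1. With 1.5-fold and an adjusted p under 0.05 in limma as the call rule, 1 of the 2 fitted members, Neurod6, met it for E15.5 over E11.5, and 28.9% of the 11741 genes tested did. The same member met it for postnatal over E15.5, as did 20.2% of all genes tested. Neither met it for postnatal over E11.5, against 27.4% of all genes tested. Since these values chose the members, nothing is read from the counts. The median difference over all genes tested was 0.11, 0.01 and 0.08 log2 units in these 3 comparisons.

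Markers of other cell types also differed between these libraries. The 9 neural progenitor markers summed to 311 to 536 FPKM at E11.5, to 965, 1801 and 1559 FPKM in the E15.5 libraries a, b and c and to 348, 982 and 492 FPKM in the postnatal libraries a, b and c. The higher sum at E15.5 was that of Fabp7, which averaged 178, 1347 and 563 FPKM at the 3 ages, and not of the list. Of the 7 progenitor markers tested with limma, 1, Fabp7, was called higher at E15.5 relative to E11.5. Vim and Sox2 were called lower, at -1.58 and -1.06 log2 units, and Vim averaged 235, 78.9 and 22.3 FPKM at the 3 ages. The 8 microglia and blood markers summed to 3.84 to 8.02 FPKM at E11.5, to 54.1, 58.0 and 15.2 FPKM at E15.5 and to 96.3, 853 and 104.5 FPKM in postnatal libraries. Their make-up changed with age. The haemoglobin genes Hba-a1 and Hbb-b1 averaged 23.1 and 9.21 FPKM at E15.5 but 0.398 and 0.245 FPKM in postnatal libraries, whereas microglial C1qb averaged 7.68 and 198 FPKM. Postnatal library b, with the highest Neurod6 of its age, thus had the highest sums of both lists at that age, whereas E15.5 library a, with the highest Neurod6 of all, had the lowest progenitor sum at E15.5. The 7 astrocyte markers summed to 0.981 to 1.399 FPKM at E11.5, 17.0 to 40.8 FPKM at E15.5 and 17.3 to 29.9 FPKM in postnatal libraries. Of 9 forebrain excitatory neuron markers, 9 averaged below 1 FPKM at E11.5, 8 at E15.5 and 8 in postnatal libraries, and their sum was 0.399 to 0.658, 3.42 to 4.71 and 5.01 to 6.83 FPKM at these ages. Bcl11b, the marker above 1 FPKM, rose by 1.84 log2 units at E15.5 relative to E11.5 (limma, adjusted p = 0.00132). The 12 rhombic lip and granule neuron markers summed to 3.57 to 7.83, 12.6 to 19.1 and 9.98 to 17.9 FPKM at the 3 ages, and Etv1 and Reln rose at E15.5 relative to E11.5 by 1.76 and 1.46 log2 units (limma, adjusted p = 0.00163 and 0.00455). Cbln1, of the same list, averaged 4.19, 9.80 and 5.65 FPKM at the 3 ages and passed no comparison. The 6 oligodendrocyte lineage markers summed to 6.09 to 12.6, 11.4 to 61.8 and 8.13 to 12.8 FPKM. The part of these cells in the Neurod6 levels was not tested. All 9 serotonin neuron markers, Fev and Tph2 among them, averaged at least 1 FPKM at each age, and their sum ranged over 1076 to 1477, 499 to 599 and 490 to 743 FPKM from E11.5 to postnatal libraries. The serotonin sum was also highest in E15.5 library a, at 599 FPKM, and postnatal library b, at 743 FPKM. Those libraries had the highest Neurod6 of their ages. The astrocyte sum was highest in postnatal library b but lowest in E15.5 library a.

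Library totals over all genes ran between 619069 and 893306 FPKM, and 9607 to 11275 genes reached 1 FPKM. Libraries correlated at r of 0.903 to 0.966 within an age and 0.794 to 0.888 between ages, across genes on the log2(FPKM + 1) scale. Read depth is unknown, because the table holds FPKM without counts.

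In Pet-1 knockout neurons Neurod6 was higher than in wild-type neurons with both kits. The targeted gene, Fev, was at 0.422 FPKM in knockout and 31.1 FPKM in wild-type neurons in the authors' deposited table for Clontech, and at 0.308 and 34.9 FPKM in the authors' deposited table for NuGEN. Neurod6 was at 19.3 FPKM in Pet-1-/- and 7.76 FPKM in wild-type neurons in the authors' deposited table for Clontech, a log2 ratio of 1.32 or 2.49-fold, with the authors' q of 0.00391. It was at 10.9 FPKM in Pet-1-/- and 2.19 FPKM in wild-type neurons in the authors' deposited table for NuGEN, a log2 ratio of 2.32 or 4.99-fold, with the authors' q of 0.00206. The 2 kits thus gave the same direction, with lower levels of Neurod6 in both genotypes under NuGEN. The Clontech wild-type libraries are those of the E15.5 age group, so the knockout and the age comparisons share them.

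Neurod1 differed in opposite directions in the 2 kits. It was at 0.554 FPKM in Pet-1-/- and 1.11 FPKM in wild-type neurons in the authors' deposited table for Clontech, a log2 ratio of -1.002 with the authors' q of 0.471. It was at 0.651 FPKM in Pet-1-/- and 0.149 FPKM in wild-type neurons in the authors' deposited table for NuGEN, a log2 ratio of 2.13 with the authors' q of 0.0947. Neither difference passed the authors' test, and a difference between the kits was not tested, as each table holds a single value per group.

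Neurod2 was at 0.0228 FPKM in Pet-1-/- and 0.00680 FPKM in wild-type neurons in the authors' deposited table for Clontech, and at 0.0958 FPKM in Pet-1-/- neurons and listed at 0 in wild-type neurons in the authors' deposited table for NuGEN. Neurod4 was at 0.00130 FPKM in Pet-1-/- and 0.0324 FPKM in wild-type neurons in the authors' deposited table for Clontech, and listed at 0 in Pet-1-/- neurons and at 0.0392 FPKM in wild-type neurons in the authors' deposited table for NuGEN. The authors' program marked both genes as not testable. The family sum was 19.9 FPKM in Pet-1-/- and 8.91 FPKM in wild-type neurons in the authors' deposited table for Clontech, and 11.7 and 2.38 FPKM in the authors' deposited table for NuGEN. Neurod6 made up 97.1% of that sum in Pet-1-/- and 87.1% in wild-type neurons for Clontech, and 93.6% and 92.1% for NuGEN, in the authors' deposited tables.

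**Figure D2:**
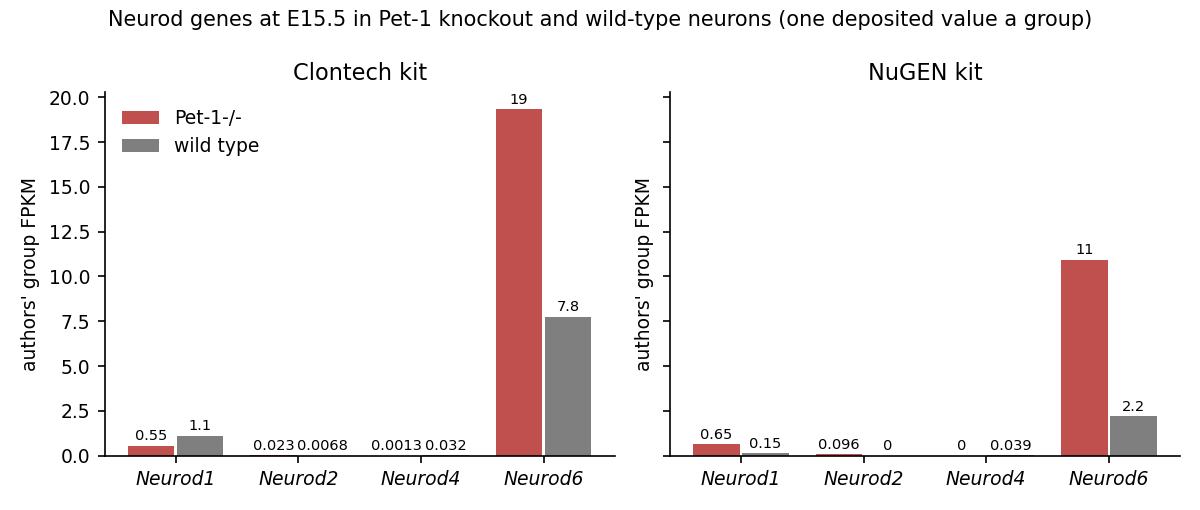
Group FPKM of the 4 Neurod genes at E15.5 in Pet-1-/- (red) and wild-type (grey) neurons, as deposited by the authors for the Clontech (left) and NuGEN (right) kit, with 1 value per group and no error. Neurod6 stands at 19.3 against 7.76 FPKM and at 10.9 against 2.19 FPKM, and the other 3 genes are near or below 1 FPKM.

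A gene was called in a knockout table when the authors' q was under 0.05, the ratio reached 1.5-fold and either genotype had 1 FPKM or more. By that rule Neurod6 was the 1 member called higher in each kit, where 0.96% of 10939 genes were called higher for Clontech and 8.18% of 11019 for NuGEN in the authors' deposited tables. No member was called lower, against 1.85% of genes for Clontech and 4.56% for NuGEN in the authors' deposited tables. Neurod6 was among the 38 genes, 0.362% of the 10501 tested in both, that were called higher in both of the authors' deposited tables. Ranked by the smaller of its 2 log2 ratios it stood at place 7 of these 38. Those calls belong to the values that chose the members and are a description.

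**Figure D3:**
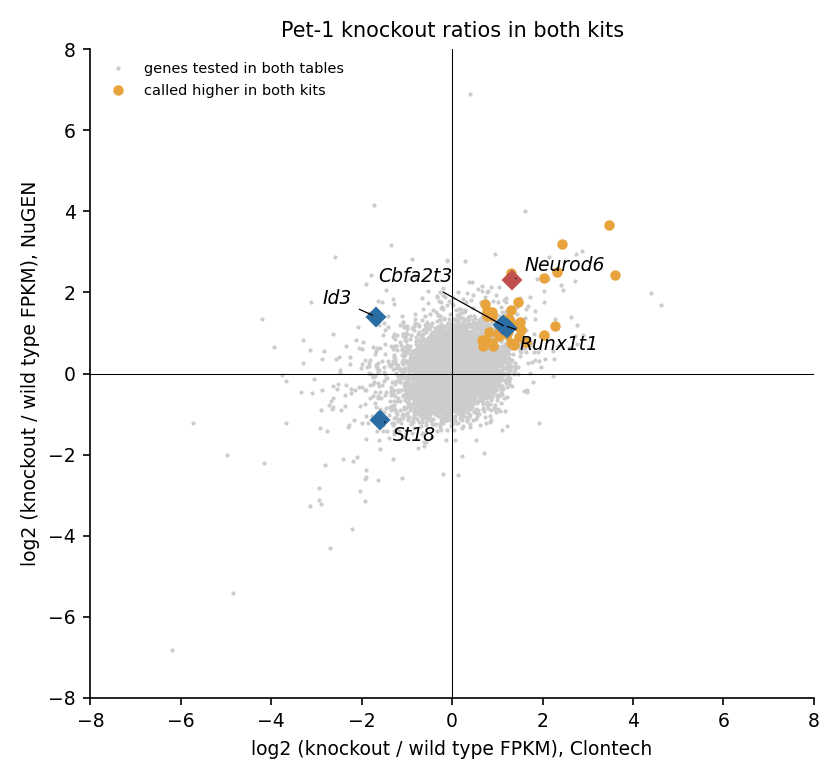
Log2 ratio of Pet-1-/- to wild-type FPKM in the Clontech table (x axis) and the NuGEN table (y axis) for each gene tested in both (grey), with the 38 genes called higher in both in orange. Neurod6 (red) lies at 1.32 and 2.32, with Runx1t1 and Cbfa2t3 (blue) in the same quadrant, St18 lower in both kits, and Id3 at -1.68 and 1.396.

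Markers of forebrain excitatory neurons and of cerebellar granule neurons, which use Neurod genes, were mostly below 1 FPKM at E15.5 in both genotypes, with Bcl11b and Cbln1 the highest exceptions. Of 9 forebrain excitatory neuron markers, 8 were below 1 FPKM in Pet-1-/- and in wild-type neurons of both of the authors' deposited tables, Bcl11b being the exception. Their sum was 7.24 FPKM in Pet-1-/- and 4.67 FPKM in wild-type neurons for Clontech, and 11.2 and 8.65 FPKM for NuGEN, in the authors' deposited tables. Emx1 was listed at 0 in every group, and Slc17a7 and Tbr1 did not exceed 0.0286 FPKM in any group of the authors' deposited tables. Of 12 rhombic lip and granule neuron markers, 9 were below 1 FPKM in each group, and the sum was 13.9 FPKM in Pet-1-/- and 15.52 FPKM in wild-type neurons for Clontech and 13.3 and 11.47 FPKM for NuGEN in the authors' deposited tables. Cbln1, Etv1 and Reln were above 1 FPKM in each group. Cbln1 made up most of the sum, at 9.69 and 9.23 FPKM for Clontech and 9.28 and 7.03 FPKM for NuGEN in the authors' deposited tables. Progenitor markers summed to 483 FPKM in Pet-1-/- and 1369 FPKM in wild-type neurons for Clontech, but to 311 and 180 FPKM for NuGEN, in the authors' deposited tables. Each sum was mostly Fabp7, at 458 and 1289 FPKM for Clontech and 284 and 135 FPKM for NuGEN in the authors' deposited tables. Fabp7 was called lower for Clontech and higher for NuGEN, whereas Vim, of the same list, was called lower in both. Astrocyte markers summed to 8.50 FPKM in Pet-1-/- and 32.1 FPKM in wild-type neurons for Clontech and to 9.24 and 11.2 FPKM for NuGEN in the authors' deposited tables. Neurod6 was higher in knockout neurons in both kits, and the part of progenitor and astrocyte RNA in its level was not tested. Of the 9 serotonin neuron markers, 6 were called lower in each kit in the authors' deposited tables. The 6 include Fev, the targeted gene, whose fall was set by the design. That is 66.7% in each kit, against 1.85% of all genes called lower for Clontech and 4.56% for NuGEN in the authors' deposited tables.

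The mycPet-1 ChIP peaks were not used to choose the members. The deposited list holds 4934 peaks on mm10, each with a score that is the peak caller's own, from 1 ChIP sample, so there is no replicate check. Neurod2 was the only member with a peak within 10 kb of its span, while 28.2% of 17492 protein-coding genes had one. That peak, chr11:98327112-98328630, is 1519 bases wide and lies inside the Neurod2 span (chr11:98325415-98329645, minus strand), 1015 bases into the gene from its start. Its score was 147.78, with 1095 peaks higher and a median of 88.3 over all peaks. It does not reach the Neurod2 start window printed above. Neurod2 itself stayed below 0.1 FPKM in every expression group.

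The other members had no nearby peak. The peak nearest to the Neurod6 start (gene at chr6:55677818-55681263, minus strand) was 293 kb away, with a score of 67.23. For Neurod1 (chr2:79452637-79456636, minus strand) it was 179 kb away, with a score of 52.55. For Neurod4 (chr10:130268152-130280254, minus strand) it was 1357 kb away, with a score of 98.7. The median over all 17492 genes was 89.1 kb, and 72.7% of them had a peak nearer to their start than Neurod6 had. Neurod6, the member called higher in knockout neurons with both kits, had no peak within 10 kb. A link between peaks and levels was not tested.

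**Figure D4:**
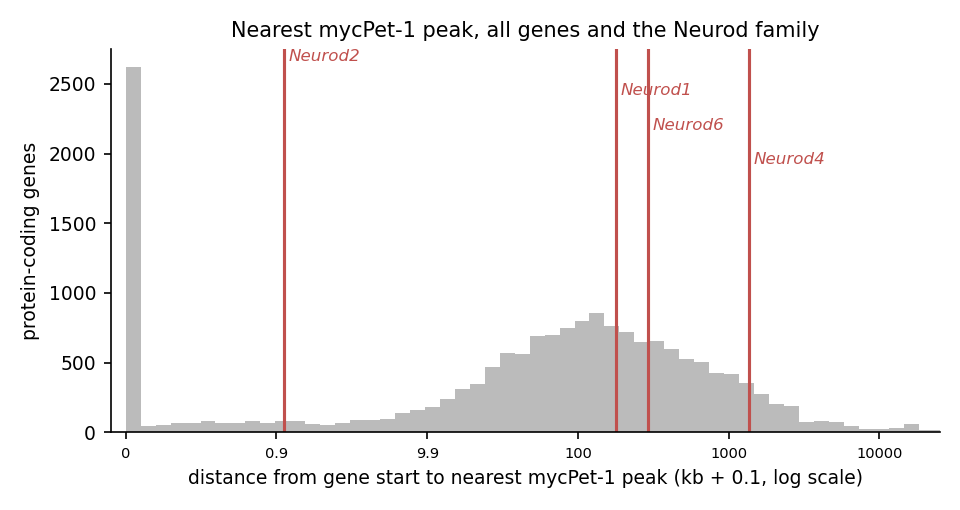
Number of protein-coding genes by the distance from their start to the nearest mycPet-1 peak, in kb on a log axis after adding 0.1 kb, with red lines for the 4 Neurod genes. Neurod2 lies at 1.01 kb, and Neurod1 at 179 kb, Neurod6 at 293 kb and Neurod4 at 1357 kb lie beyond the median of 89.1 kb.

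Among the E proteins, the dimer partners of Neurod factors, Tcf4 had its highest level at E15.5, the age with the most Neurod6. Tcf4 was at 4.03, 3.62 and 5.83 FPKM at E11.5, at 61.8, 47.2 and 96.5 FPKM at E15.5 and at 25.4, 24.7 and 43.4 FPKM in postnatal libraries. The 3 ages did not overlap. It rose by 3.62 (SE 0.35) log2 units at E15.5 relative to E11.5 (limma, adjusted p = 3.48e-05) and fell by 1.10 (SE 0.35) in postnatal libraries relative to E15.5 (limma, adjusted p = 0.0434). The later fall was called in 5 of 9 fits that each left out 1 library, with differences of -1.36 to -0.82, and not without E15.5 a or c or postnatal a or b. Tcf3 was at 15.003 ± 1.01 FPKM at E11.5, 4.46 ± 1.85 FPKM at E15.5 and 4.52 ± 1.83 FPKM in postnatal libraries (SD, n = 3 each). It fell by 1.61 (SE 0.37) log2 units at E15.5 relative to E11.5 (limma, adjusted p = 0.00749). Tcf12 averaged 11.8, 10.9 and 6.82 FPKM at the 3 ages and passed no comparison. None of the 3 E proteins was called in either knockout table: Tcf4 was at 71.9 FPKM in Pet-1-/- and 77.1 FPKM in wild-type neurons for Clontech, and at 63.3 and 43.7 FPKM for NuGEN, in the authors' deposited tables.

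Of the Id inhibitors, Id3 and Id4 were among the more abundant bHLH-class transcripts at each age, and Id2 at E15.5 and in postnatal libraries. Id2 was at 0.742, 5.73 and 24.6 FPKM at E11.5, at 120.7, 88.4 and 139.1 FPKM at E15.5 and at 32.6, 52.5 and 72.9 FPKM in postnatal libraries. It rose by 4.10 (SE 0.71) log2 units at E15.5 relative to E11.5 (limma, adjusted p = 0.00138), and its E11.5 libraries spread widely. Id3 averaged 126.2, 125.9 and 46.8 FPKM at the 3 ages and fell by 1.37 (SE 0.45) log2 units in postnatal libraries relative to E15.5 (limma, adjusted p = 0.0470). That call was lost in 7 of 9 fits that left out 1 library, all but those without E11.5 a or c, with differences of -1.56 to -1.02. Id1, at 2.77, 8.04 and 5.83 FPKM, and Id4, at 75.6, 48.6 and 62.3 FPKM, passed no comparison. In the knockouts Id3 was at 30.6 FPKM in Pet-1-/- and 98.0 FPKM in wild-type neurons for Clontech, called lower, but at 28.2 and 10.7 FPKM for NuGEN, called higher, in the authors' deposited tables. Id2 was at 199.96 FPKM in Pet-1-/- and 74.5 FPKM in wild-type neurons in the authors' deposited table for NuGEN, called higher, and at 174.4 and 124.4 FPKM in that for Clontech, not called.

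**Figure D5:**
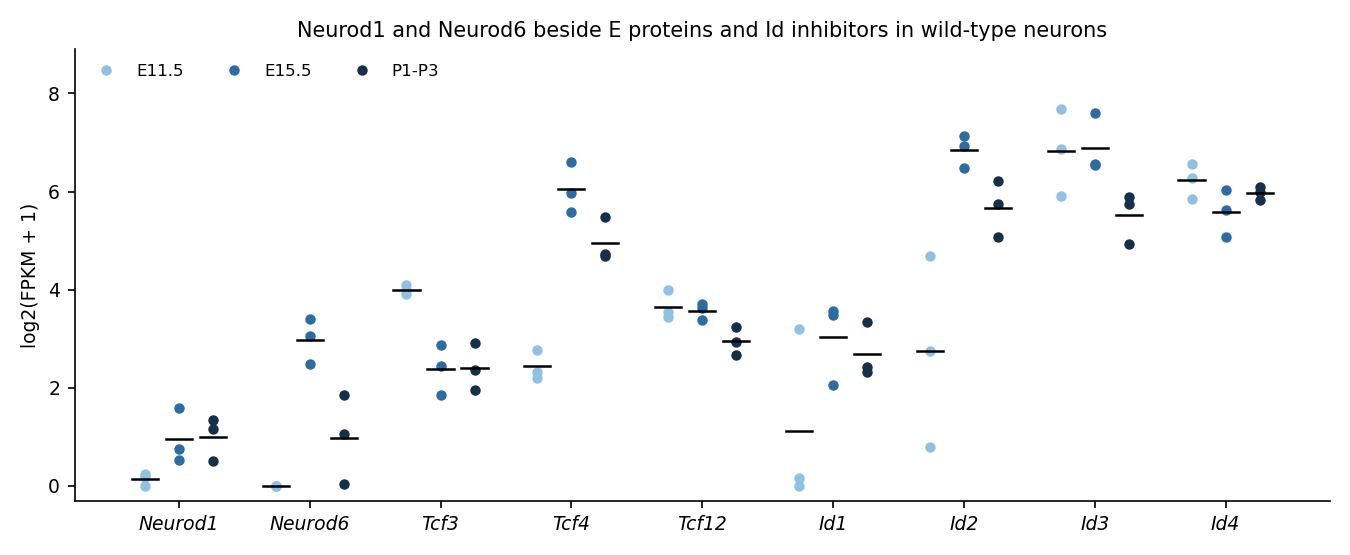
Level of Neurod1, Neurod6, the 3 E proteins and the 4 Id genes in each wild-type library, as log2(FPKM + 1), at E11.5, E15.5 and postnatal day 1 to 3 (light to dark), with a black line at the mean of 3 libraries. Neurod1, Neurod6, Tcf4, Id1 and Id2 have their highest library at E15.5, and Tcf3, Tcf12, Id3 and Id4 have theirs at E11.5.

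Few factors of the same class accompanied Neurod6. Of 19 proneural and other neuronal bHLH genes outside the family, 12 reached 1 FPKM in no library, and none averaged above Neurod6 at E15.5. Neurog1, Neurog2 and Neurog3, which precede Neurod genes in cortex and pancreas, averaged at most 0.156 FPKM at any age, and Atoh1 and Ptf1a were listed at 0 throughout. Ascl2 was called higher in postnatal libraries relative to E15.5 by 1.63 (SE 0.49) log2 units (limma, adjusted p = 0.0342), in 4 of 9 fits that each left out 1 library, the exceptions being those without each E15.5 library and postnatal b and c. Atoh7 passed no comparison; it was listed at 0 at E11.5, its E15.5 mean was 1.03 ± 0.942 FPKM and its postnatal mean 4.27 ± 5.03 FPKM (SD, n = 3 each).

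Olig1, an oligodendrocyte lineage and progenitor factor, averaged 5.27 ± 2.96 FPKM at E15.5 (SD, n = 3), the nearest to Neurod6 in this class. It was 2.51 (SE 0.49) log2 units higher at E15.5 than at E11.5. It could not have passed the detection filter without its E15.5 libraries, where it was highest, so no test is given. Tal2, a midbrain GABA neuron factor, averaged 2.51 ± 0.599 FPKM at E15.5 (SD, n = 3) and was listed at 0 at both other ages. It passed the detection filter through the 3 E15.5 libraries alone, so it had to differ from the other ages and no test is given. In the knockouts Tal2 was at 0.00742 FPKM in Pet-1-/- and 2.41 FPKM in wild-type neurons in the authors' deposited table for Clontech, with the authors' q of 0.620, and listed at 0 and at 0.0834 FPKM in the authors' deposited table for NuGEN.

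Of 23 Notch pathway genes, 16 were tested with limma. At E15.5 relative to E11.5, 1 rose and 5 fell, or 37.5% called against 28.9% of all genes tested. Those with the largest changes were the ligand Dll3 (-1.77, limma adjusted p = 0.00904), the Hes family member Hes6 (-1.72, limma adjusted p = 0.0194) and the coactivator Maml3 (-1.68, limma adjusted p = 0.00497). In postnatal libraries relative to E15.5, 2 rose and 2 fell, or 25.0% against 20.2%, led by Hes5 at 2.08, the Notch-modifying enzyme Mfng at -1.97 and Dll3 at 1.76 log2 units. In postnatal libraries relative to E11.5, 1 rose and 5 fell, or 37.5% against 27.4%, led by Mfng at -2.62, Hes5 at 2.02 and Maml3 at -1.56 log2 units. The Hes6 fall, the rise of Hes5 in either comparison and the 2 later Dll3 and Mfng changes relative to E15.5 were each lost without 1 or more of the libraries. Those libraries were E11.5 a or b and E15.5 c for Hes6, E15.5 a or c and postnatal a or b for Hes5 relative to E15.5, and E11.5 a and postnatal a or b for Hes5 relative to E11.5. They were E15.5 c and postnatal a or b for Dll3, and E15.5 a or b and postnatal a for Mfng. Differences in these fits were -2.18 to -1.28 for Hes6, 1.72 to 2.40 and 1.31 to 2.54 for Hes5, 1.44 to 2.15 for Dll3 and -2.43 to -1.62 for Mfng. No Notch pathway gene was called in either knockout, among 16 tested for Clontech and 14 for NuGEN in the authors' deposited tables. Over all genes of the authors' deposited tables, 0.96% were called higher and 1.85% lower for Clontech, and 8.18% and 4.56% for NuGEN.

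Of 26 newborn neuron genes, 21 were tested with limma. At E15.5 relative to E11.5, 4 rose and 4 fell, or 38.1% called against 28.9% of all genes tested. The largest change was that of Gadd45g, a stress-response gene used as a mark of new neurons, at -4.25 (limma, adjusted p = 1.98e-05). Runx1t1, a corepressor of the Eto family, followed at 3.08 (limma, adjusted p = 0.000122) and the helix-loop-helix factor Ebf1 at -2.76 log2 units (limma, adjusted p = 0.000419). In postnatal libraries relative to E15.5, 2 rose and 6 fell, or 38.1% against 20.2%. Sox11, a factor of immature neurons, led at -4.25, followed by Gadd45g at 3.62 and Rnd3, a small GTPase of migrating neurons, at -3.26 log2 units. In postnatal libraries relative to E11.5, 3 rose and 6 fell, or 42.9% against 27.4%, led by Ebf1 at -4.65, the zinc finger factor Insm1 at -4.43 and Sox11 at -3.82 log2 units. Rnd3, like Neurod6, had its highest mean at E15.5, at 73.1 ± 29.5 FPKM at E11.5, 270.7 ± 52.6 FPKM at E15.5 and 27.3 ± 5.36 FPKM in postnatal libraries (SD, n = 3 each). Runx1t1 did too, at 0.603 ± 0.400, 12.7 ± 4.07 and 6.63 ± 0.838 FPKM at the 3 ages (SD, n = 3 each).

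Over all 6 neurogenic lists, 49 of 75 genes were tested. Of these 9 rose and 10 fell at E15.5 relative to E11.5, 5 rose and 11 fell in postnatal libraries relative to E15.5, and 7 rose and 14 fell in postnatal libraries relative to E11.5. That is 38.8, 32.7 and 42.9% of the list genes tested, against 28.9, 20.2 and 27.4% of all genes tested. The first 2 pairs of counts include Tal2, the first also Olig1 and the second also Ascl2. The medians of the lists together were -0.13, -0.26 and -0.27 log2 units. The counts relative to E15.5 were the least steady, at 1 to 6 higher and 5 to 12 lower when 1 library was left out. The higher count was 2 without E15.5 a or postnatal a and 1 without E15.5 c or postnatal b. The lower count was 5 without E15.5 a, 6 without E15.5 c or postnatal a, and 7 without E15.5 b or postnatal b. In postnatal libraries relative to E11.5, 4 genes were higher without postnatal b.

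In the knockouts 3 of 48 tested list genes were called higher and 2 lower for Clontech, and 8 of 43 higher and 3 lower for NuGEN, in the authors' deposited tables. That is 6.25% higher and 4.17% lower for Clontech, against 0.96% and 1.85% of all genes, and 18.6% higher and 6.98% lower for NuGEN, against 8.18% and 4.56% of all genes, in the authors' deposited tables. The median log2 ratio of the list genes was -0.01 for Clontech and 0.31 for NuGEN, against -0.02 and 0.08 over all genes tested in the authors' deposited tables. The Eto family corepressors Runx1t1 and Cbfa2t3 were called higher in both kits, as Neurod6 was. Cbfa2t2, of the same family, was not: its log2 ratio was -0.33 for Clontech, not called, and -0.67 for NuGEN, called lower, in the authors' deposited tables. Runx1t1 was at 29.96 FPKM in Pet-1-/- and 13.7 FPKM in wild-type neurons for Clontech and at 41.0 and 17.9 FPKM for NuGEN in the authors' deposited tables. Cbfa2t3 was at 8.06 FPKM in Pet-1-/- and 3.47 FPKM in wild-type neurons for Clontech and at 11.3 and 5.16 FPKM for NuGEN in the authors' deposited tables. St18, a zinc finger factor, was called lower in both, at 2.06 FPKM in Pet-1-/- and 6.19 FPKM in wild-type neurons for Clontech and 1.32 and 2.93 FPKM for NuGEN in the authors' deposited tables. The RNA-binding neuronal gene Elavl3 was at 77.8 FPKM in Pet-1-/- and 44.7 FPKM in wild-type neurons for Clontech, called higher, and at 63.5 and 40.9 FPKM for NuGEN, not called at the authors' q of 0.0538, in the authors' deposited tables. In the authors' deposited table for NuGEN, Ebf2 (log2 ratio 1.52), Olig1 (1.37), Ebf1 (1.11) and Myt1l (0.70) were also called higher and Elavl2 (-0.69) and Cbfa2t2 (-0.67) lower. In the authors' deposited table for Clontech these genes were not called, at log2 ratios of 0.71, 0.21, 0.91, 0.30, -0.32 and -0.33 in the same order, and a difference between the kits was not tested.

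Across the 9 wild-type libraries, the genes whose log2(FPKM + 1) followed Neurod6 most closely, among 6927 genes averaging at least 5 FPKM, were Arpc1a (r = 0.983), Golt1b (0.970), Decr2 (0.969), Dscr3 (0.969) and Nsdhl (0.967). They had their highest mean at E15.5: Golt1b averaged 12.1 ± 1.79 FPKM at E11.5, 41.3 ± 7.42 FPKM at E15.5 and 17.1 ± 2.50 FPKM in postnatal libraries (SD, n = 3 each). Those nearest to Neurod1 were Capn7 (r = 0.953), D1Ertd622e (0.934), Gnai1 (0.926), Casc4 (0.921) and Tm9sf2 (0.921). Capn7 averaged 3.39 ± 0.356, 6.54 ± 3.57 and 7.10 ± 1.60 FPKM at the 3 ages (SD, n = 3 each). These r values are descriptions over libraries that fall into 3 ages, and they were picked as the highest of many.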

How the data were processed

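The authors aligned RNA reads with TopHat2, estimated expression with Cufflinks, aligned ChIP reads with BWA and called peaks with MACS 1.4.2, on mm9 and mm10, per the submitters' processing notes, which do not pair each tool with a build. The authors deposited FPKM per library for the age series, and per group for the knockout comparisons together with their q-values (adjusted p-values) and log2 fold changes. The peak list was deposited with the authors' score per peak. The E15.5 columns of the age series name no kit. They were taken as the Clontech libraries because the labels' protocols give that kit for the other ages, and their mean FPKM over the Clontech wild-type group value had a median ratio of 0.978 over genes, and its 5th and 95th percentiles were 0.845 and 1.15. Columns that match no sample (3) were not used. Libraries are called a, b and c in the order of their columns.

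Expression was analysed as log2(FPKM + 1) with limma 3.58.1 in R 4.3.3 (mean-variance trend, all 9 wild-type libraries in 1 fit, 6 residual degrees of freedom, Benjamini-Hochberg adjustment) for genes that reached 1 FPKM in 3 or more libraries. The pseudocount understates changes of low genes. The 14 genes whose estimate failed, Tubb3 and Stmn1 among them, were left out, and 25 names turned into dates were kept as they stand. An exact 0 is given as listed at 0. The fit was tested on simulated data in which the changed genes had a higher mean level than any member. That test does not cover genes as low as the members. Knockout calls used the authors' q-values, since only group values were at hand. Peaks were set against RefSeq gene positions of GRCm38.p6, the assembly of mm10. Start windows came from RefSeq, and all 4 genes matched by symbol. Depth is unknown.

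The members and lists were chosen with earlier results of these data known. The genes named are the members, every gene of lists of up to 4, in longer lists up to 3 called genes per comparison by size of change, the 5 genes most like each fitted member, and Fev. Genes of the short bHLH lists, genes called in a knockout beyond that number, Rnd3 and Runx1t1 as examples of genes highest at E15.5, and the markers named with their values were added after their values were seen. Alternatives were the pseudocount, scaling, filter, trend, each library left out, the call thresholds, and the peak window and score. A gene of the bHLH lists is not reported here.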

Additional observations from a re-analysis of the deposited data

How the results depend on the processing

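No called result changed direction in the alternatives run; the Neurod1 difference between postnatal libraries and E15.5, near 0, changed sign with the library left out. Leaving out 1 library at a time, the Neurod6 difference ranged over 2.77 to 3.23 log2 units at E15.5 relative to E11.5, -2.43 to -1.52 in postnatal libraries relative to E15.5 and 0.55 to 1.46 relative to E11.5, and Neurod1 over 0.50 to 1.03, -0.17 to 0.36 and 0.70 to 1.11. The list counts ranged over 7 to 10 higher and 7 to 10 lower, 1 to 6 higher and 5 to 12 lower, and 4 to 9 higher and 11 to 14 lower in the same order of comparisons. A pseudocount of 0.1 gave 6.12, -3.22 and 2.90 for Neurod6, 2.37 for Neurod1 at E15.5 and 2.49 for postnatal libraries, both relative to E11.5, 0.0891 and -0.0891 for Neurod2 in the first 2 comparisons, and -0.48, -0.37 and -0.84 for Neurod4, since values near 0 weigh more with a small pseudocount. Centring each library on its median moved postnatal differences relative to E15.5 and E11.5 to -0.0970 and -0.0913 for Neurod2 and to -0.14 and -0.22 for Neurod4. The group FPKM of the authors' deposited age table were used for postnatal libraries relative to E15.5 alone, where no member moved beyond its spread, and were not run for the comparisons with E11.5. Without the filter on low values, 2 list genes were higher and 7 lower in postnatal libraries relative to E15.5, and the cause was not tested. Knockout log2 ratios after adding 1 FPKM were 1.21 (Clontech) and 1.90 (NuGEN) for Neurod6, -0.44 and 0.52 for Neurod1, and for Clontech 0.0228 for Neurod2 and -0.0441 for Neurod4. Less the median ratio of all genes, an alternative chosen after seeing the data, they were 1.34 and 2.24 for Neurod6, -0.98 and 2.05 for Neurod1, and for Clontech 1.77 for Neurod2 and -4.62 for Neurod4. At a q under 0.01, 5 list genes were higher for NuGEN, and at 2-fold 1 was lower. Neurod2 remained the only member with a nearby peak at 50 kb (44.8% of genes), 2 kb (23.1%) and with scores of at least 100 (13.5%). No paired analysis was possible because the columns of the age series carry no replicate number of the labels and the knockout tables hold group values only. Limits are the 3 libraries per group, single group values in the knockouts, a single ChIP sample, unknown depth, and levels near 0 for 3 of the 4 members.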
